A study of Mus musculus with 23 samples.

Results

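Myelin and oligodendrocyte genes were followed in mouse nucleus accumbens, part of the ventral striatum, in lines bred for their response to methamphetamine. The set holds 7 genes, Mobp, Mal, Cldn11, Mag, Mbp, Mog and Cnp, of 8252 named on the array. Its members are all probe sets that the array platform's annotation assigns to these genes, which gave 13 of the 12422 probe sets that are not controls. A probe set is a group of short probes on the array that report 1 transcript region, and its value is on a log2 scale, so that a difference of 1 is a doubling. Of the 13, 10 lay above the array's floor on enough arrays to be tested, among 6979 tested probe sets in all. Mobp has 4 tested probe sets, Mbp has 2, and Mal, Cldn11, Mag and Mog have 1 each.

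Messenger RNA was measured on 23 Affymetrix arrays, each hybridised with RNA of 1 pool of accumbens tissue that the labels call 4-way. The groups were HMACT mice after 2 mg/kg methamphetamine (6 pools), HMACT mice after saline (6 pools), LMACT mice after methamphetamine (5 pools) and LMACT mice after saline (6 pools), all taken 1 hour after the injection. Both lines derive from a cross of C57BL/6J and DBA/2J mice. HMACT was bred for a high and LMACT for a low acute response to methamphetamine, a psychostimulant. The labels name no second pair of lines, so whether a difference goes with the selected response or with this pair alone cannot be told apart. The labels give a mean age per pool. Pools over 100 days are called older here. The 6 older HMACT pools (3 per injection) were 141.5 to 154 days old and the 6 younger ones 77.25 to 88 days. The 2 older LMACT pools (1 per injection) were 127.5 and 114.75 days old and the 9 younger ones 60 to 72.75 days. Nothing in the labels says how the animals of a pool relate to those of another, so the p-values below measure only the spread between these pools.

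Myelin is the stack of membrane layers that oligodendrocytes wrap around axons in the central nervous system. Mbp (myelin basic protein) and Mobp (myelin-associated oligodendrocyte basic protein) encode basic proteins of compact myelin, where the inner membrane faces are held together. Cldn11 encodes the claudin of myelin's tight junctions, and Mal a membrane proteolipid of lipid-rich domains. Mag encodes an adhesion glycoprotein of the membrane next to the axon, Mog a glycoprotein of the outermost layer, and Cnp a phosphodiesterase of uncompacted myelin. The accumbens is grey matter crossed by small fibre bundles, and in whole tissue the level of these transcripts depends on how many oligodendrocytes are in the sample and on how much RNA each holds. In these pools fewer such cells and less RNA per cell cannot be told apart.

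Most of the defining oligodendrocyte markers on the array were measured, with 1 exception. Probe sets of 6 genes were above the floor of 2.3 on all 23 arrays. The single probe set of Cnp (93072_at) was at the floor on all of them, so Cnp gives no value here. A pair of further probe sets had no level either: Mag 161846_r_at was above the floor on 0 arrays and Cldn11 161529_r_at on 1. The arrays were not alike. Within groups, 60.6% of the residual variance lay along a single axis, and on it 4 arrays stood apart, with scores of 57.3 to 83.3 against -14.0 to 37.7 for the other 19. Of these, 2 are HMACT pools after saline (replicates 3 and 5), 1 is an HMACT pool after methamphetamine (replicate 3), and 1 is an LMACT pool after methamphetamine (replicate 4). They also had a smaller difference between the 3-prime and 5-prime control probe sets of Gapdh and actin, a measure of RNA and labelling quality (1.07 to 2.26, against 2.12 to 4.57 on the others). A smaller value of it does not mark these arrays as poorer than the others. This control difference averaged 2.23 in HMACT and 2.74 in LMACT, with medians of 2.28 and 2.57. The highest value, 4.57, is that of LMACT methamphetamine replicate 5. Results that rest on these 4 arrays are given with and without them. In places fits with that axis as a covariate or with weights on the arrays are also given. The part of the 4 arrays in the results was not tested otherwise.

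The first question was whether the line bred for a high response and the line bred for a low response differ in myelin gene expression. The clearest difference was in Mobp, on both of the probe sets picked here because they separate the lines best, of 4 tested. Signal was lower in HMACT on these, while 99047_at and 99048_g_at did not show the difference. The mean of the gene's probe sets was at -0.35 over both injections, which does not pass. On probe set 99046_at HMACT fell below LMACT by a log2 difference of -0.50 (SE 0.0935) as a mean over both injections, which is 1.42-fold. This is the member that passed the test, with an adjusted p of 0.0142 by limma. It is a dim probe set, with values of 3.53 to 4.84 over all arrays and a floor of 2.3. It is among the dimmest 40% of tested probe sets. On probe set 100536_at the difference was -0.80 (SE 0.190), or 1.74-fold, with an adjusted p of 0.059, which does not pass. Cldn11 (-0.54, SE 0.183, adjusted p = 0.17) and Mal (-0.38, SE 0.137, adjusted p = 0.194) had the same sign and did not pass.

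On Mobp 99046_at, HMACT pools after methamphetamine had a lowest value of 3.53, a median of 4.07 and a highest value of 4.18, against 4.36, 4.54, 4.19, 4.84 and 4.33 in the 5 LMACT pools. After saline the HMACT pools had 3.71, 4.13 and 4.18 in the same order, against 4.39, 4.54 and 4.81 in LMACT pools. The lines did not overlap after either injection, although the gap after methamphetamine was narrow. Of all tested probe sets, 0.287% were lower in HMACT without overlap after methamphetamine, 2.22% after saline and 0.0573%, which is 4 probe sets, after both. After methamphetamine the group means were 3.95 ± 0.29 in HMACT (SD, n = 6) and 4.45 ± 0.25 in LMACT (SD, n = 5). After saline they were 4.06 ± 0.18 in HMACT and 4.56 ± 0.16 in LMACT (SD, n = 6 each).

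On Mobp 100536_at, HMACT pools after methamphetamine had a lowest value of 10.92, a median of 12.01 and a highest value of 12.45, against 12.63, 13.17, 11.98, 12.98 and 12.88 in LMACT. After saline the HMACT pools had 11.31, 11.96 and 12.64, against 12.36, 12.82 and 12.99 in LMACT pools. The lines overlapped after both injections, but all 12 HMACT pools lay below the LMACT mean of their injection. The same held for all 12 on 99046_at. The remaining Mobp probe sets did not show the difference. On 99047_at the log2 difference was 0.09 (SE 0.251) and on 99048_g_at -0.17 (SE 0.155), so the probe sets of this gene disagree. The levels of different probe sets cannot be compared, since each has its own probes.

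The promoters of the 3 genes with the most negative line differences over both injections, and of 2 with smaller ones (Mag and Mog), are printed for comparison of their sequences. Each is the run of 250 bases before the gene's annotated start, on the gene's own strand, from RefSeq on the GRCm38.p6 build. Capitals mark matches, on either strand, to ACAAAG, the core bound by SOX factors such as the oligodendrocyte factor SOX10, and to CTGGCAC or CTGGTAC, the core bound by the myelin regulatory factor MYRF.
Mobp, chr9:120149492-120149741 (+ strand): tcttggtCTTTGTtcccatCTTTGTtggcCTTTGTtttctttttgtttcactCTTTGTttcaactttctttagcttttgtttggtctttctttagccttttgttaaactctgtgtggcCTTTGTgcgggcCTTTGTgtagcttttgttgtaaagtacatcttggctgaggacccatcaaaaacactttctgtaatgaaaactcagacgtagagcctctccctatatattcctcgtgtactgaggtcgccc
Mal, chr2:127656696-127656945 (- strand): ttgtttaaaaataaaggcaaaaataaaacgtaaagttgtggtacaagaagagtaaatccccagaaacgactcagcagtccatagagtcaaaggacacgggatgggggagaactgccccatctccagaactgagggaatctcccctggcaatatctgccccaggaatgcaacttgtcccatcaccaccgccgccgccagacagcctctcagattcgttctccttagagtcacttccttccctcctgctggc
Cldn11, chr3:31149670-31149919 (+ strand): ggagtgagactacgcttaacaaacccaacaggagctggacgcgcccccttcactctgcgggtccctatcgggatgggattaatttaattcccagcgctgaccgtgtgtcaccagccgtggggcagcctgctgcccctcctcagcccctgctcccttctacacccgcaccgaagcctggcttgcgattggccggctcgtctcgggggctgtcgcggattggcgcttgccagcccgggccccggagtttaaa
Mag, chr7:30914864-30915113 (- strand): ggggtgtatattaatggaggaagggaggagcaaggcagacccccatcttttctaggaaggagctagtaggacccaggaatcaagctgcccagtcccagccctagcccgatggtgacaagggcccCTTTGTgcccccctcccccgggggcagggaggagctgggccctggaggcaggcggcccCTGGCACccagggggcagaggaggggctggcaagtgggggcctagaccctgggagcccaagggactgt
Mog, chr17:37023399-37023648 (- strand): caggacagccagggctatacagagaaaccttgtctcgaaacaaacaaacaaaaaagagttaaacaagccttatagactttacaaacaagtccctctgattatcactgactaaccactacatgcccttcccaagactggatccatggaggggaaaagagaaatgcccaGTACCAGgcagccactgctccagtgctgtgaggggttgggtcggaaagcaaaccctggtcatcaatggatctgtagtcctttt
The Mobp promoter holds 6 matches to the SOX core, all written CTTTGT on the gene's strand. Mal and Cldn11 hold 0 matches to either core in this window. The Mag promoter (the first of 3 listed for this gene) holds 1 of each, and Mog holds 1 match to the MYRF core. The third promoter listed for Mag, not printed, holds 0 matches to either core. Among 32851 mouse promoters of this length, 16.5% hold the SOX core and 5.93% the MYRF core. The E-box CAGCTG, found in 13% of them, has 0 matches in the 5 printed here. A match is a description of the letters and not a bound site. Of the 7 genes, 6 matched an entry in the promoter table.

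Mal, the raft proteolipid, had a lowest value of 7.33, a median of 7.72 and a highest value of 8.09 in HMACT after methamphetamine, against 8.19, 8.48, 7.87, 7.25 and 8.15 in LMACT. After saline it had 7.42, 7.79 and 7.93 in HMACT, against 7.69, 8.24 and 8.67 in LMACT. The lines overlapped, and 11 of 12 HMACT pools lay below the LMACT mean of their injection. The lowest LMACT value came from methamphetamine replicate 5, which also had the largest 3-prime to 5-prime control difference (4.57).

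Cldn11, the myelin claudin, had a lowest value of 7.32, a median of 8.02 and a highest value of 8.63 in HMACT after methamphetamine, against 8.34, 8.74, 9.04, 7.67 and 8.87 in LMACT. After saline it had 7.86, 8.22 and 8.35 in HMACT, against 7.85, 8.78 and 9.12 in LMACT. Again 11 of 12 HMACT pools lay below the LMACT mean. In LMACT after saline, 1 pool (replicate 6, the older one) was as low as the lowest HMACT pool, and the others were at 8.48 or above.

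**Figure D1:**
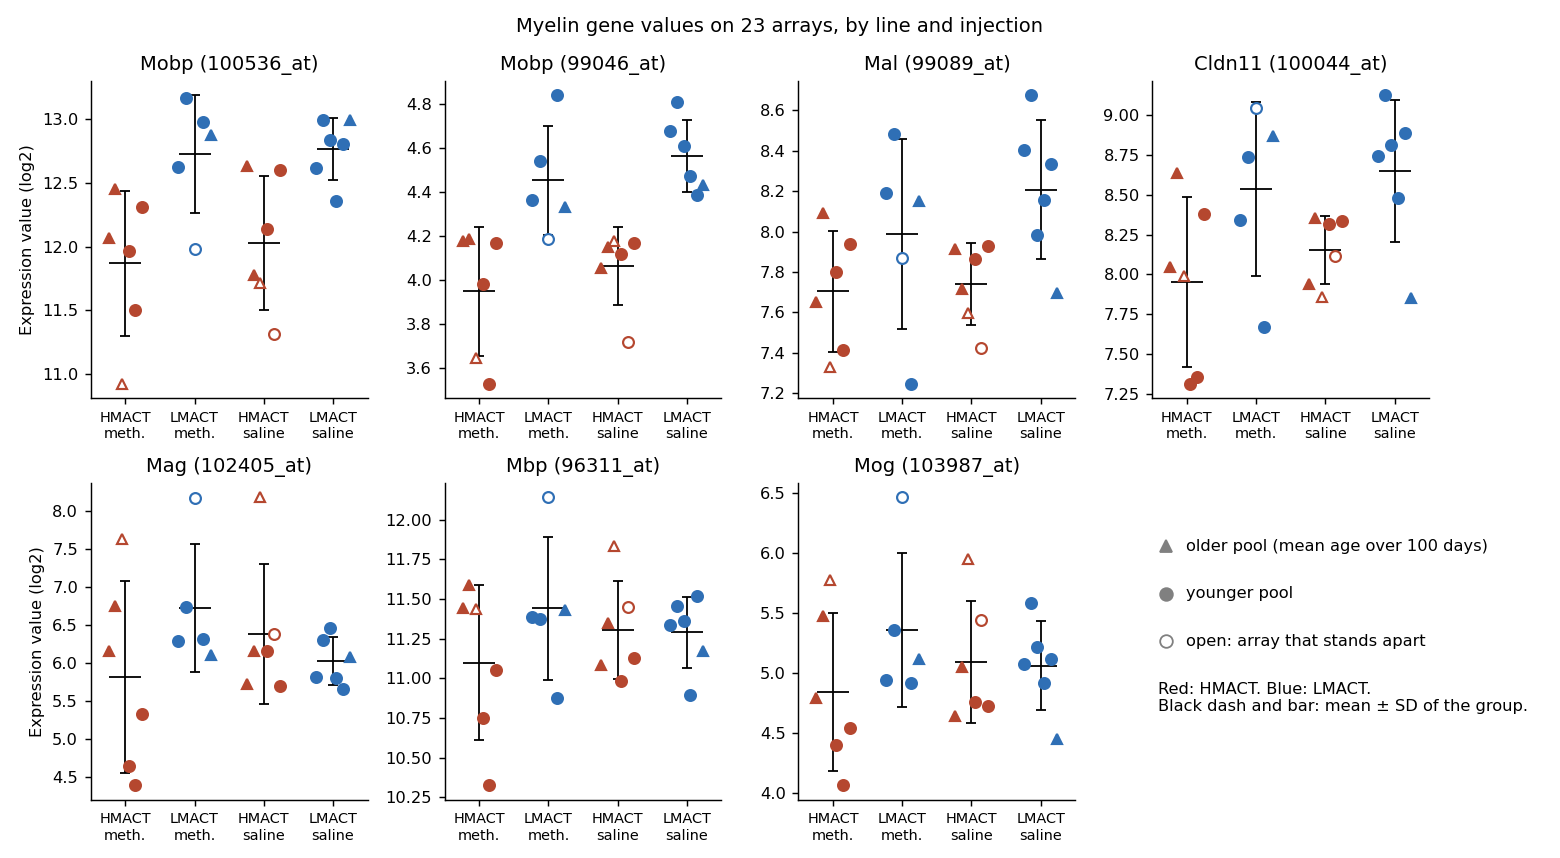
Expression values (log2) of 7 myelin probe sets on 23 arrays, HMACT in red beside LMACT in blue after methamphetamine and after saline; triangles are older pools, open symbols the 4 arrays that stand apart, and dash and bar the mean ± SD of a group. HMACT lies below LMACT without overlap on Mobp 99046_at (means 3.95 against 4.45 after methamphetamine), whereas Mag, Mbp and Mog overlap widely and the highest value of each panel is an open symbol.

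The adhesion and compact myelin genes Mag, Mbp and Mog did not follow Mobp after saline. Mag had a lowest value of 4.39, a median of 5.74 and a highest value of 7.64 in HMACT after methamphetamine, against 6.29, 6.74, 8.17, 6.31 and 6.11 in LMACT. After saline it had 5.70, 6.15 and 8.18 in HMACT, against 5.65, 5.95 and 6.46 in LMACT. Its log2 difference was -0.90 (SE 0.531) after methamphetamine and 0.36 (SE 0.506) after saline, and neither passed (adjusted p = 0.875 and 0.659). The 2 lowest Mag values of the study, 4.39 and 4.64, both came from younger HMACT pools after methamphetamine.

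Mbp 96311_at had a lowest value of 10.32, a median of 11.24 and a highest value of 11.59 in HMACT after methamphetamine, against 11.38, 11.37, 12.14, 10.88 and 11.43 in LMACT. After saline it had 10.98, 11.24 and 11.83 in HMACT, against 10.90, 11.35 and 11.52 in LMACT. The groups overlapped, with log2 differences of -0.34 (SE 0.225) after methamphetamine and 0.02 (SE 0.214) after saline. The second Mbp probe set, 96310_at, had differences of 0.01 (SE 0.202) after methamphetamine and 0.19 (SE 0.193) after saline. Mog had 4.06, 4.67 and 5.77 in HMACT after methamphetamine, against 4.94, 5.36, 6.47, 4.92 and 5.11 in LMACT, a difference of -0.52 (SE 0.326). After saline it had 4.64, 4.90 and 5.95 in HMACT, against 4.45, 5.10 and 5.59 in LMACT, and a log2 difference of 0.03 (SE 0.311), so that the groups overlapped after both injections. In the combined line comparison Mag (-0.27, SE 0.367), Mbp 96311_at (-0.16, SE 0.155) and Mog (-0.24, SE 0.225) had adjusted p-values of 0.665, 0.537 and 0.528. With the array axis, described above, as a covariate, Mag was at -0.90 (adjusted p = 0.0247) and Mog at -0.62 (adjusted p = 0.0144), and both passed there. That axis was derived from the values of these same arrays, Mag and Mog among them, so these p-values are not independent of it. Without the 4 arrays that stand apart neither Mag (-0.50, adjusted p = 0.271 by limma) nor Mog (-0.35, adjusted p = 0.234) passed.

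Counted over the 10 tested myelin probe sets, 1 passed in the comparison of HMACT with LMACT averaged over injections, against 0.573% of all tested probe sets (40 of 6979). That total was 576 without LMACT methamphetamine replicate 4, and 17 to 84 without any other single array. At an unadjusted p under 0.05, 4 were lower and 0 higher in HMACT, against 11.5% of all tested probe sets that were lower. Their median log2 difference was -0.26, beside 0.00 for all tested probe sets, and 8 of 10 were negative, against 49% of all. After methamphetamine alone 0 passed, against 0% of all, and 3 were lower at an unadjusted p under 0.05, against 3.83%. There 9 of 10 were negative, against 56.2% of all, and the median was -0.42, beside -0.02 for all. After saline alone 0 passed, against 0.0287% of all, and 3 were lower at an unadjusted p under 0.05, against 12.5%. The signs were mixed there, with 5 of 10 negative, against 45.3% of all, and a median of -0.08, beside 0.02 for all.

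**Figure D2:**
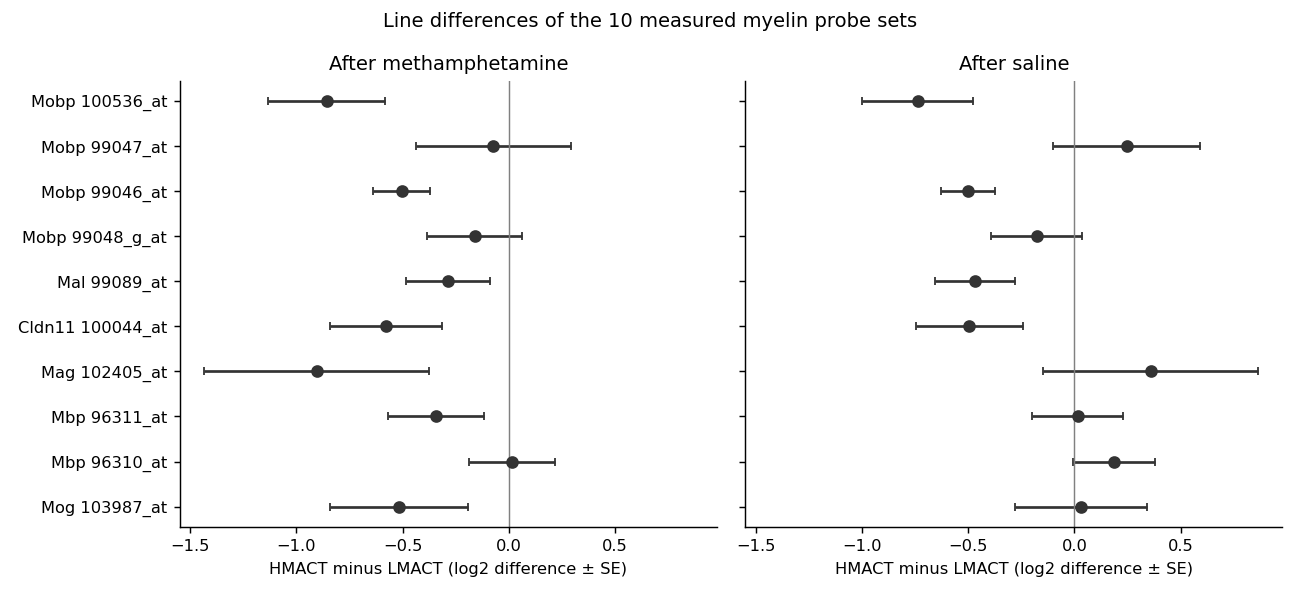
Log2 difference of HMACT minus LMACT (point, with SE as bar) for the 10 tested myelin probe sets after methamphetamine on the left and after saline on the right. Mobp 100536_at (-0.86 and -0.74) and Mobp 99046_at (-0.50 and -0.50) lie left of 0 in both panels, while Mag is at -0.90 after methamphetamine and 0.36 after saline.

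On the 4 arrays that stand apart, Mag, Mbp and Mog ran opposite to Mobp 100536_at and Mal. Set against the other arrays of their own group, Mag was higher on all 4, by 0.45 to 2.25 on the log2 scale. Mog was higher by 0.65 to 1.38, Mbp 96311_at by 0.31 to 0.88, Mbp 96310_at by 0.48 to 0.95 and Mobp 99047_at by 0.07 to 2.45. Mobp 100536_at ran the other way, with differences of -1.14 to -0.57, and Mal with -0.45 to -0.15. On 99046_at 3 of the 4 were lower. Such shifts were common: 30.6% of all tested probe sets were higher and 26.1% lower on all 4. Of the 3 HMACT arrays among them, 2 hold the highest Mag value of their group, 7.64 after methamphetamine and 8.18 after saline.

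**Figure D3:**
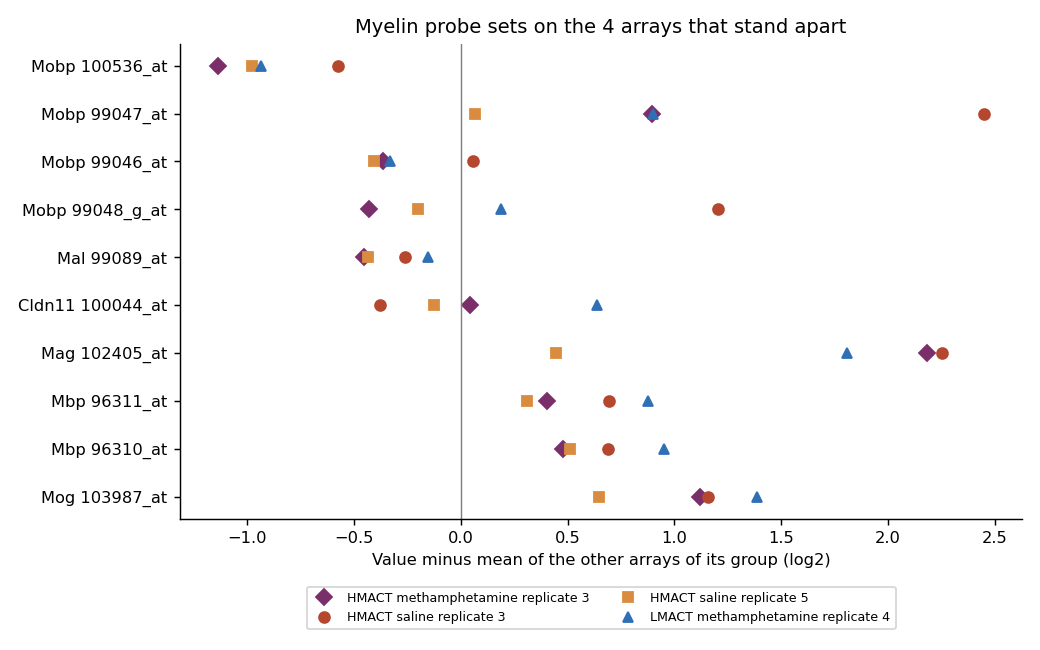
Value of each of the 10 tested myelin probe sets on the 4 arrays that stand apart, minus the mean of the other arrays of the same group (log2). Mag, Mog and both Mbp probe sets lie right of 0 on all 4 arrays, and Mobp 100536_at (-1.14 to -0.57) and Mal lie left of it on all 4.

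Without these 4 arrays, of which 2 are HMACT saline pools, the line differences of the myelin genes were more alike after saline. After methamphetamine they were not, with 9 of 10 negative with and without the 4 arrays. There they ran from -0.91 (Mag) to 0.13 (Mbp 96310_at) without the 4 arrays, against -0.90 to 0.01 with all arrays. After saline all 10 probe sets had a negative HMACT minus LMACT difference without the 4 arrays, with Mag at -0.09, Mbp 96311_at at -0.15 and Mog at -0.27. None of these passed. As a mean over injections, Mobp 100536_at was then at -0.67 (SE 0.142, adjusted p = 0.0231) and 99046_at at -0.48 (SE 0.0924, adjusted p = 0.0162), so both passed. Over all probe sets, 195 passed then (2.79%), so that 2 of the 10 members stand against a larger number of calls. Cldn11 was then at -0.44 (SE 0.213) and Mal at -0.30 (SE 0.154), against -0.54 and -0.38 with all arrays, and neither passed. At an unadjusted p under 0.05, 2 members were then lower, against 4 with all arrays. Over all 6979 tested probe sets that number went from 804 to 957. Leaving out LMACT methamphetamine replicate 4 alone, or HMACT saline replicate 1 or 6 alone, also brought 100536_at past the threshold.

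Age is unevenly spread over the lines. Chip lot is spread much alike over them, but all 8 older pools are in the lot that held 15 arrays. Within each age class every HMACT pool was older than every LMACT pool, at 77.25 to 88 against 60 to 72.75 days among younger pools. Neither age class in the model nor the younger pools alone therefore gives a line difference at equal age. With age class in the model, Mobp 99046_at had a log2 line difference of -0.51 (SE 0.101, adjusted p = 0.0365) and was again the single member that passed, against 0.272% of all tested probe sets. With mean age in days instead it was -0.51 with an adjusted p of 0.101, which does not pass, and with age class 0 members passed when any of 11 of the 23 arrays was left out. Among the 15 younger pools alone the value was -0.59 (SE 0.127, adjusted p = 0.187), which does not pass in that smaller set. In the chip lot that held 15 arrays it was -0.46 (SE 0.0998, adjusted p = 0.108), and with lot as a covariate -0.51 (adjusted p = 0.00407). In the same lot Mobp 100536_at was at -0.85 (SE 0.230) and Cldn11 at -0.31 (SE 0.215), whereas Mag (0.26), Mbp 96311_at (0.08) and Mog (0.07) had the opposite sign to the pooled values. The other lots held 4, 3 and 1 arrays.

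No myelin probe set passed the test for methamphetamine itself, 1 hour after injection. Of the 10, 0 passed in HMACT (against 0.0143% of all tested probe sets), 0 in LMACT (against 0%), 0 as a mean over lines (against 0.043%) and 0 in the difference of the effects between lines (against 0%). At an unadjusted p under 0.05 the members counted 0 in HMACT (against 1.66% of all tested probe sets in either direction), 0 in LMACT (against 4.47%) and 0 in the difference between lines (against 3.8%). The smallest unadjusted p as a mean over lines, 0.0235 (adjusted p = 1 by limma), was that of Mobp 99048_g_at, with a log2 difference of -0.38 (SE 0.155). It was the single member under 0.05 there, 1 of 10 lower against 0.989% of all tested probe sets. Mag had a difference of -0.56 (SE 0.506) in HMACT and 0.70 (SE 0.531) in LMACT. The test of that contrast between lines gave -1.26 (SE 0.733, adjusted p = 0.766). Without the 4 arrays that stand apart the same contrast was -0.82. Mobp 100536_at differed by -0.16 (SE 0.262) in HMACT and -0.04 (SE 0.275) in LMACT.

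The second question was whether older pools differ from younger ones. Myelin keeps accumulating in the mouse forebrain through early adulthood, which is background to this contrast. Within groups and over both lines, 0 of the 10 probe sets passed, against 0% of all tested probe sets, and 0 had an unadjusted p under 0.05, against 5.63% in either direction. Mag had the largest value, a log2 difference of 0.75 (SE 0.381, adjusted p = 0.729), and Mbp 96311_at had 0.30 (SE 0.163, adjusted p = 0.729). The other 8 lay between -0.08 and 0.37. The median was 0.11, beside 0.00 for all tested probe sets.

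Within HMACT, where 6 older and 6 younger pools can be compared, older minus younger was most positive for Mag, Mobp 99047_at, Mog and Mbp, and the remaining Mobp probe sets, Mal and Cldn11 had smaller values. Mag had a lowest value of 5.72, a median of 6.46 and a highest value of 8.18 in older HMACT pools, against 4.39, 5.52 and 6.38 in younger ones. The ranges overlapped, and 5 of 6 older pools lay above the younger mean of their injection. Its log2 difference was 1.34 (SE 0.428, adjusted p = 0.269), or 2.52-fold, and it did not pass. Mbp 96311_at had 11.08, 11.44 and 11.83 in older pools, against 10.32, 11.02 and 11.45 in younger ones, a difference of 0.51 (SE 0.191, adjusted p = 0.269). Mog had 4.64, 5.26 and 5.95 in older pools, against 4.06, 4.63 and 5.44 in younger ones, a difference of 0.62 (SE 0.278, adjusted p = 0.279). For each of these 2 genes, too, 5 of 6 older pools lay above the younger mean of their injection.

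Mobp 99047_at had 0.66 (SE 0.329, adjusted p = 0.298), or 1.58-fold, and 0.16 without the 4 arrays that stand apart, 1 of which holds its highest value. Mbp 96310_at had 0.35 (SE 0.183). For the remaining probe sets in HMACT, older minus younger was -0.04 (SE 0.273) for Mobp 100536_at, 0.12 (SE 0.130) for Mobp 99046_at, 0.14 (SE 0.214) for Mobp 99048_g_at, -0.01 (SE 0.195) for Mal and 0.17 (SE 0.258) for Cldn11. The sign for Mobp 100536_at, Mal and Mobp 99048_g_at turned without the 4 arrays (0.11, 0.05 and -0.03). Of the 10 probe sets 0 passed in HMACT, against 0% of all, and 3 were higher at an unadjusted p under 0.05 (Mag, Mbp 96311_at and Mog), against 7.57%. Of the 4 arrays, 2 are older HMACT pools and hold the highest Mag values. Without all 4 the differences were 0.91 (SE 0.313) for Mag, 0.51 (SE 0.181) for Mbp 96311_at and 0.48 (SE 0.206) for Mog, with 4 of 10 higher at an unadjusted p under 0.05, against 8.44% of all, and 0 past the test, against 0.917%. With the array axis as a covariate they were 0.56, 0.25 and 0.12. All 6 older HMACT pools are in the lot of 15 arrays, but of the younger HMACT pools only saline replicate 6 and methamphetamine replicate 6 are. Within that lot the differences were 1.25 (SE 0.588) for Mag, 0.36 (SE 0.197) for Mbp 96311_at and 0.65 (SE 0.338) for Mog.

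In LMACT, with 2 older pools against 9 younger ones, 9 of the 10 values were negative and 0 passed, against 0.115% of all tested probe sets. At an unadjusted p under 0.05 there were 0, against 2.58% in either direction. Mag was at 6.08 and 6.11 in the older pools, against a lowest value of 5.65, a median of 6.30 and a highest value of 8.17 in the younger pools. Mog was at 4.45 and 5.11 in the older pools, against 4.92, 5.12 and 6.47 in the younger ones. The direct test of the age difference in HMACT minus that in LMACT gave 1.67 (SE 0.720, adjusted p = 0.548) for Mag and 1.15 (SE 0.469, adjusted p = 0.548) for Mog. Neither passed, and 0 of 10 did, against 0.0573% of all. At an unadjusted p under 0.05 these 2 were higher, against 2.62% of all. The age contrast was thus not shown to differ between the lines.

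**Figure D4:**
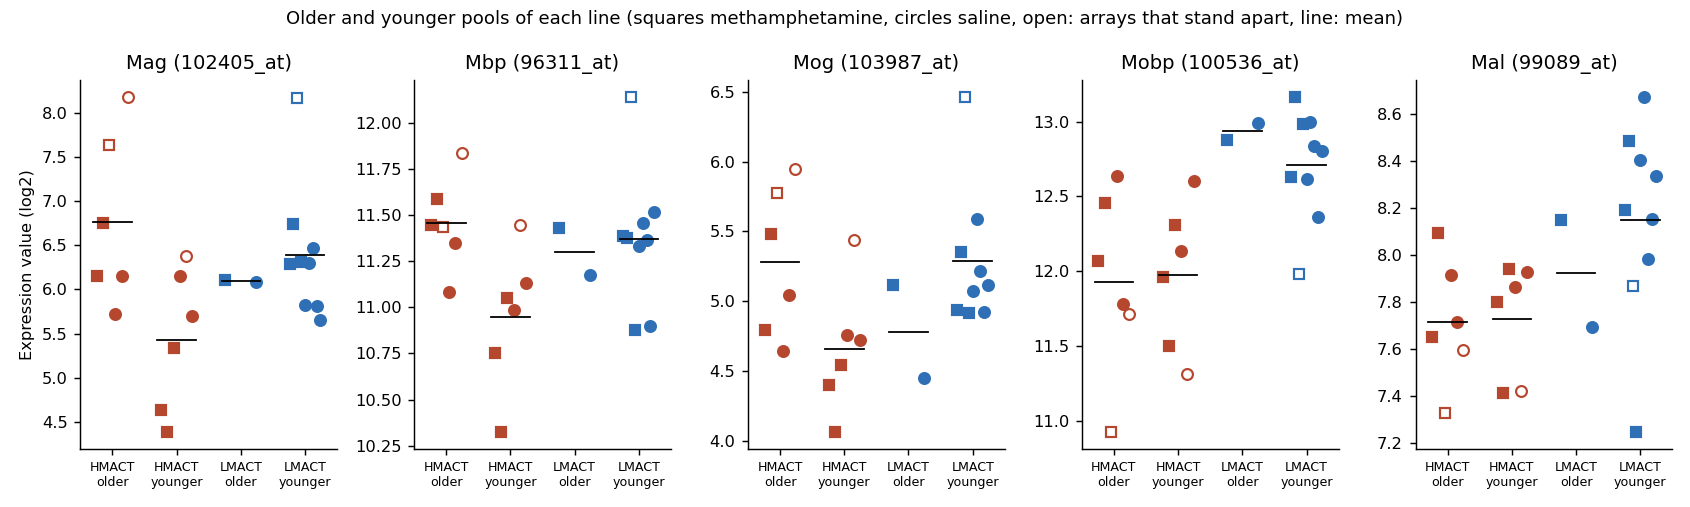
Expression values (log2) of 5 myelin probe sets in older and younger pools of each line; squares are methamphetamine and circles saline pools, open symbols the 4 arrays that stand apart, and lines the means. In HMACT the older pools have the higher mean for Mag (6.77 against 5.43), Mbp and Mog but not for Mobp 100536_at or Mal; LMACT has only 2 older pools.

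Other genes of the oligodendrocyte lineage were read from lists of textbook markers, with 1 probe set per gene. Among 45 other myelin and mature oligodendrocyte genes, 22 were read and 19 were tested. Between the lines 0 of the 19 passed, 9 had positive and 10 negative values, and the median was -0.02, beside 0.00 for all tested probe sets. With age class in the model 3 were positive and 16 negative, with a median of -0.10, and without the 4 arrays that stand apart 7 and 12, with a median of -0.12. At an unadjusted p under 0.05, 4 were lower, against 11.5% of all tested probe sets, and 0 higher in HMACT. For older minus younger pools 0 passed, 16 were positive and 3 negative, and the median was 0.17. Car2, a carbonic anhydrase of oligodendrocytes, had 0.44 (SE 0.158, adjusted p = 0.729), and the lipid carrier gene Apod 0.51 (SE 0.217, adjusted p = 0.729), or 0.28 without the 4 arrays that stand apart. In HMACT the median of the list for age was 0.45, and 0.37 without those arrays, with 16 of 19 positive. In LMACT it was -0.11, with 7 positive and 12 negative values, and 0 of 19 passed in either line.

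Of 11 oligodendrocyte transcription factor genes, 6 were tested and 0 passed in either comparison. Sox10, the SOX factor that activates myelin genes, had an older minus younger difference of 0.78 (SE 0.305, adjusted p = 0.729), or 0.48 once those 4 arrays were left out. Yy1, a zinc finger factor required for oligodendrocyte maturation, had -0.31 (SE 0.118, adjusted p = 0.729). Between the lines the list had 2 positive and 4 negative values and a median of -0.03. Of 11 genes of oligodendrocyte precursors, 7 were tested and 0 passed. Their line difference had a median of -0.30 and 5 of 7 were negative, with 3 lower in HMACT at an unadjusted p under 0.05, against 11.5% of all tested probe sets. With age class in the model the median was -0.17 and 1 was lower, against 6.02%. For age the precursor genes had a median of -0.10, with Sox11, a SOX factor of immature cells, at -0.73 (SE 0.275, adjusted p = 0.729) and Ptprz1, a receptor phosphatase of precursors and astrocytes, at -0.42 (SE 0.272, adjusted p = 0.73). Of 20 tested genes of cholesterol and fatty acid synthesis 0 passed, with medians of -0.02 between lines and 0.01 for age. Among them, Cyp51, a sterol demethylase, had -0.31 for age and Elovl5, a fatty acid elongase, -0.33.

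Markers of other cells in the tissue were read beside the myelin genes, and 0 of their tested members passed in the line or the age comparison. Between the lines the median was -0.01 for 9 astrocyte genes, 0.38 for 6 microglial genes, -0.18 for 7 striatal projection neuron genes and 0.04 for 6 interneuron genes. It was -0.05 for 9 endothelial and pericyte genes, 0.05 for 4 choroid plexus genes and -0.26 for 4 Schwann cell genes. For age the same medians were 0.14, 0.52, -0.13, 0.19, 0.03, -0.01 and 0.09. Without the 4 arrays that stand apart the microglial median was 0.08 between the lines and 0.24 for age, and for age the interneuron median was 0.01 and the astrocyte median 0.05. Linear values were also summed over each list, which gives most weight to its brightest probe sets. The Schwann cell sum was 938.5 to 1273 in HMACT after methamphetamine against 1088 to 1481 in LMACT. After saline it was 530.2 to 887 in HMACT against 913 to 1208 in LMACT. That sum, which includes Mal itself, did not overlap between the lines after saline, although 2 of its 4 genes had positive and 2 negative differences there. The astrocyte sum was 9910 to 11910 in HMACT after methamphetamine against 12360 to 18080 in LMACT, without overlap, and 10380 to 14310 in HMACT after saline against 11800 to 14000 in LMACT. After methamphetamine 4 of the 9 astrocyte genes had positive and 5 negative differences. The sum of the myelin members themselves did not overlap after methamphetamine either, at 4553 to 9506 in HMACT against 9692 to 12790 in LMACT. After saline it overlapped (5910 to 9107 against 7900 to 12060). The brightest probe sets in this sum are Mobp 100536_at, picked above for separating the lines, and Mbp 96311_at. Their median log2 values are 12.45 and 11.36, and the next, Cldn11, is at 8.34. The sum therefore mostly repeats those of Mobp and Mbp. Among single probe sets, 0.287% of all tested were lower in HMACT without overlap after methamphetamine and 2.22% after saline. No such share was computed for sums. The part of the Schwann cell or astrocyte list in the myelin values was not tested.

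The members did not all vary together from pool to pool. Across the 23 arrays, as residuals from group means, each member's correlation with the mean of the other 5 was 0.746 for Mbp, 0.741 for Cldn11, 0.599 for Mog, 0.465 for Mag, 0.373 for Mal and -0.144 for Mobp. On the 19 arrays without those that stand apart it was 0.836, 0.813, 0.85, 0.683, 0.599 and 0.426. These are descriptions over arrays that share the axis noted above, and 1 probe set stands for each gene. Of 5398 other genes, those most like the mean of the 6 members over 23 arrays were Nde1 (r = 0.72), Wbp11 (0.715), Septin4 (0.708), Adgrl1 (0.699), Ak3 (0.696), Ackr1 (0.69), Qdpr (0.686), Ap1s1 (0.68), Myo1d (0.675) and Tpst1 (0.675). Over the 19 remaining arrays they were Septin4 (0.818), Apod (0.809), Coq5 (0.786), Smad7 (0.752), Erbb3 (0.747), Cd82 (0.741), Igfbp4 (0.729), Myo1d (0.728), Clic4 (0.726) and Emg1 (0.726). Septin4 and Myo1d are in both sets, and Septin4, Apod, Erbb3 and Qdpr are on the list of mature oligodendrocyte genes. The median correlation over all 5398 genes was 0.0671, and 0.0316 on the 19 arrays.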

How the data were processed

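Each of the 23 samples is a pool of mouse nucleus accumbens, hybridised as biotin-labelled cRNA to 1 array, per the labels. The authors deposited a table of log2 values, 1 for each probe set on each array, normalized before deposit by a method not given in the sources used here; likewise for background correction and genome build. The labels give no scale, and log2 was read off the range (2.2349 to 16.3592). The submitters' processing notes name R 2.7.1. No depth applies to arrays, and their number limits the precision; 44.2% of values lay at the floor, under 2.3.

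Group, age, dose and chip lot came from the labels. The platform annotation, with symbols updated through RefSeq gene identifiers, gave 10855 of 12488 probe sets 1 gene, 396 several and 1193 none; 10839 matched RefSeq. Control probe sets (66) and those above the floor on fewer than 5 arrays were left out. limma 3.58.1 in R 4.3.3 (lmFit, contrasts.fit, eBayes; two-sided) was fitted to the remaining 6979 in 3 models: 4 group means, group means with age class, and age class within each line. This gave 14 comparisons, each called at a Benjamini-Hochberg adjusted p under 0.05 over all 6979. The model was checked on simulated data with known changes. Of 253 array pairs 0 were identical.

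To find arrays unlike the rest, residuals from group means over 6831 probe sets were reduced to their leading principal component, the array axis; an array stands apart if its score, taken as its deviation from the all-array medians along that axis, exceeds the median by 3.5 median absolute deviations (43.98). All member probe sets are reported, and the likeness measure lists 10 genes. From each marker list the text names up to 6 genes that pass, otherwise the 2 with the smallest p for age; not all so chosen are printed. Members, lists, the axis rule and alternatives were chosen with earlier results of these data known. Alternatives covered filters (including the dimmest 40%), probe set summaries, normalization, weights, lot, age, replicate blocks and left-out arrays. Replicate numbers were not used to pair samples in the main fits, and whether they pair pools was not settled. Same-numbered HMACT pools after saline and methamphetamine shared a chip lot, and for replicates 1, 2 and 4 also a mean age. Within-line correlations of same-numbered deviations ran from -0.605 to 0.871, and the consensus block correlation was 0.208 with group means. With that block as a random term, 4 probe sets were called for methamphetamine in HMACT and 9 over both lines.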

Additional observations from a re-analysis of the deposited data

Results flagged for a closer look

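In 40 groups of pools (10 member probe sets in 4 groups), 4 values lay far from the rest of their group by Dixon's criterion, which chance meets in about 1 of 20 groups. Mobp 99047_at was 8.92 in HMACT saline replicate 3, and the next highest value of the group was 6.79. Mag was 8.18 in the same pool, and the next highest was 6.38. Mobp 99046_at was 3.71 in HMACT saline replicate 5, and the next lowest value was 4.05. Mog was 6.47 in LMACT methamphetamine replicate 4, and the next highest was 5.36. All 4 values came from arrays that stand apart on the array axis.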

How the results depend on the processing

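Mobp 99046_at kept its negative line difference over both injections in the 13 alternatives that fitted it and without any 1 array (-0.59 to -0.44), while the call and the signs of smaller values moved; causes were not tested except where fewer samples or probe sets were fitted. The number of members called between the lines (1) was 0 with 1 probe set per gene, which leaves 99046_at out, with the mean of a gene's probe sets, in the largest lot alone, with mean age in days and in younger pools alone. It was 2 with chip lot as a covariate, with the replicate block as a fixed term (99046_at -0.51) and without the 4 arrays that stand apart, 3 with the array axis as a covariate and 4 with array weights. Without the dimmest 40%, which drops 99046_at, the 1 called member was Mobp 100536_at (adjusted p = 0.0433). Leaving out 1 array gave 1 to 2. With age class in the model the number (1) was 0 without the floor filter, without the dimmest 40%, with 1 probe set per gene, with the mean of probe sets, with median centring, in the largest lot, with mean age in days and with the replicate block as a random term. It was 2 without the 4 arrays, 3 with the axis and 4 with weights. Leaving out 1 array there gave 0 to 2, with 2 for LMACT methamphetamine replicate 4 and 0 for replicates 4 and 5 of HMACT after methamphetamine and after saline, replicates 2, 3 and 6 of LMACT after methamphetamine and 1, 2, 4 and 6 of LMACT after saline. After methamphetamine the number (0) was 3 with weights and 1 with the axis, with or without age class; for age in HMACT it was 4, and for the age difference between lines 2, with weights. The other counts of called members, with and without the replicate block, stayed at 0. After saline the line difference of Mbp turned to -0.00808 with quantile normalization, -0.14 with weights, -0.17 with age in days, -0.13 in younger pools, -0.15 without the 4 arrays and -0.33 with the axis. For Mog it turned to -0.18 with weights, -0.12 with age in days, -0.21 in younger pools, -0.27 without the 4 arrays and -0.59 with the axis, and for Mag to -0.14 with age in days, -0.091 without the 4 arrays and -0.66 with the axis. Leaving out 1 array gave -0.0016 to 0.49 for Mag, -0.090 to 0.080 for Mbp and -0.14 to 0.14 for Mog there. In the largest lot the line difference of Mag, Mbp and Mog turned to 0.084, 0.15 and 0.018 after methamphetamine and to 0.26, 0.078 and 0.071 over both injections. The age difference in HMACT of Mobp 100536_at turned to 0.22 with the mean of probe sets, 0.035 with weights, 0.11 without the 4 arrays and 0.41 with the axis, and ran from -0.21 to 0.16 when 1 array was left out. That of Mal turned to 0.037 with quantile normalization, 0.028 with median centring, 0.086 with weights, 0.048 without the 4 arrays and 0.15 with the axis, and ran from -0.10 to 0.072. That of Mobp 99046_at turned to -0.025 with lot as a covariate and -0.10 in the largest lot, and that of Cldn11 to -0.22 in the largest lot. Over all tested probe sets, the number called between the lines (40) ran from 1 in the largest lot to 1187 with weights, with 16 and 91 under the replicate block as a random and a fixed term. With age class (19) it ran from 1 to 357, after methamphetamine (0) up to 312, after saline (2) from 0 to 127, for age in HMACT (0) up to 1613, for age in LMACT (8) from 0 to 21 and for the age difference between lines (4) from 0 to 774. For methamphetamine it ran up to 4 in HMACT (1), 75 in LMACT (0) and 10 over both lines (3). Signal over background limits Cnp and single probe sets of Mag and Cldn11, which gave no level.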
